A study of Homo sapiens with 8 samples.

Results

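The genes described here make cholesterol, sense it or export it. They are 20 enzymes of cholesterol synthesis, 4 genes that control the transcription factor SREBP2, the sterol carrier STARD4, the 2 LXR receptors and 3 targets of LXR. The 30 genes were chosen by symbol for their known role, with earlier results of these data known. Of them, 29 were found among the 14870 rows of the authors' deposited table. The exporter ABCG1 was not listed, under its current symbol or an older one. LX-2 is an established human hepatic stellate cell line, a model of the liver cells that lay down scar matrix. All 8 samples received recombinant TGF-β1, the cytokine that activates such cells, for 72 h in 2% FBS medium. The solvent DMSO was added in 4 of them and 5 µM ML290, a synthetic agonist of RXFP1, the receptor of relaxin, in the other 4. Every group thus carries TGF-β1, and the comparison asks what ML290 changed in its presence.

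Cells make cholesterol from acetyl-CoA through mevalonate, prenyl chains, squalene and lanosterol. When the membrane of the endoplasmic reticulum holds little sterol, SCAP carries SREBP2 to the Golgi, where it is cut and released to switch on most of these enzymes. When sterol is plentiful, INSIG proteins hold SCAP and SREBP2 back, and oxysterols activate the LXR receptors, which raise cholesterol exporters. In mice, free cholesterol that builds up in hepatic stellate cells is known to sensitise them to TGF-β.

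Each value is the authors' least-squares mean of a normalised read count over the 4 samples of a group, and no value per sample was used here. No SD, SE or count of samples therefore stands beside a value, and error enters only through the adjusted p that the authors' deposited table gives, from a test that is not named. The study calls the samples biological replicates without naming separate cultures, so p-values measure only the spread between these samples. Low values lay near whole multiples of a common step, which corresponds to about 19100000 reads per ML290 library and 21000000 per DMSO library if values are per 1000000 reads. On that scale the members ranged from about 154 reads summed over 4 libraries (NR1H3 with ML290) to about 23244 (DHCR7 with DMSO). Of the stellate line's markers, COL1A1, COL1A2, PDGFRB, VIM and ACTA2 were listed and DES was not, and the hepatocyte markers ALB, APOA1 and TTR were not listed. Because the values are bulk averages, less RNA per cell and fewer cells carrying it cannot be told apart.

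With ML290, messenger RNAs of cholesterol synthesis were lower at nearly every step, while the genes that hold SREBP2 back and those that handle finished cholesterol moved in both directions. Of the 29 listed members, the authors' deposited table called 23 lower with ML290 and 4 higher at an adjusted p below 0.05, against 15.6% and 19.5% of all rows. Either way 27 of 29 passed, against 35.1% of all rows. The 2 that did not pass were PMVK and GGPS1. The median log2 ratio of the 29 was -0.61, or 1.52-fold lower, and that of all rows was 0.02, both from the authors' deposited table. Of the 25 members with a mean level of at least 10, 15 lay below the 5th percentile of the 8860 rows at that level and none above the 95th, at log2 ratios of -0.47 and 0.62 in the authors' deposited table. Those 15 were 14 enzymes and INSIG1.

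**Figure D1:**
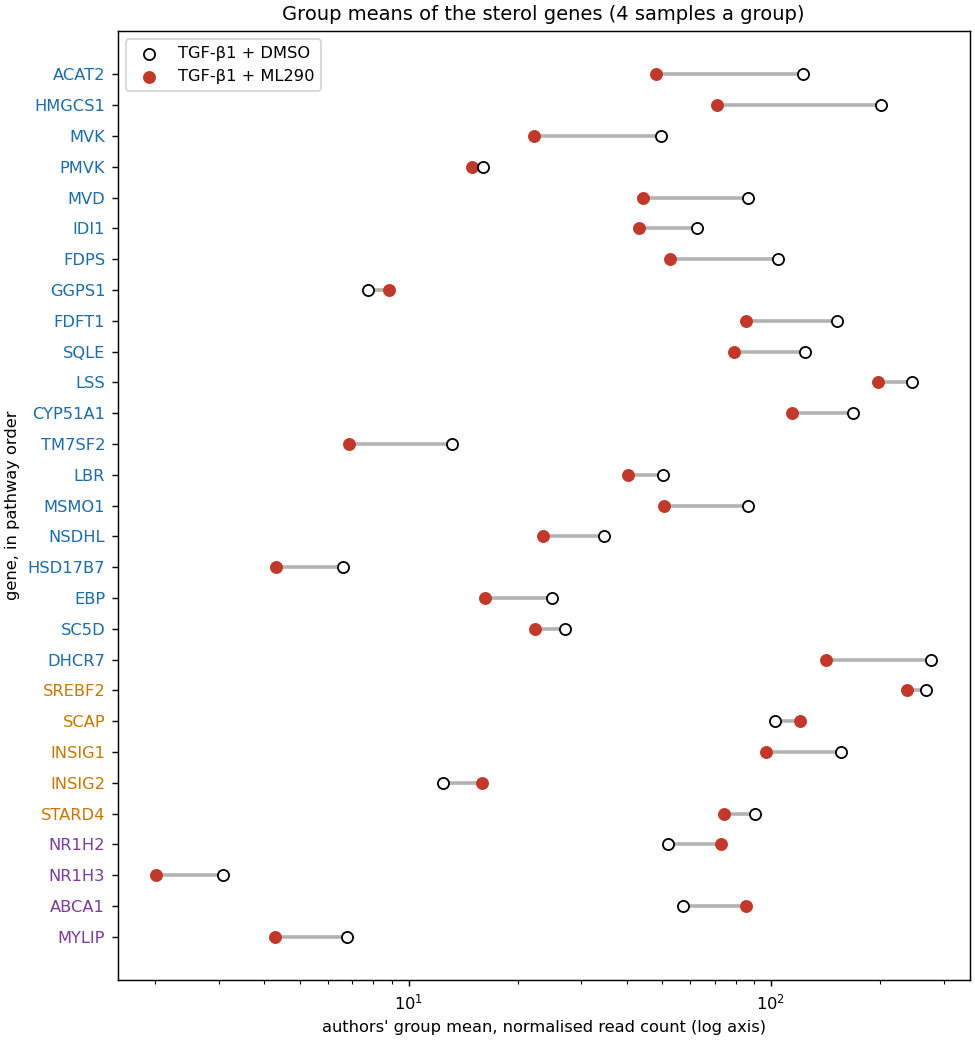
Group means of the 29 listed genes on a log axis of normalised read count, in pathway order from top to bottom; open circles are the 4 samples with DMSO, filled circles the 4 with ML290, and a line joins them. The filled circle lies to the left in all enzymes except GGPS1 and to the right in SCAP, INSIG2, NR1H2 and ABCA1.

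The entry to the pathway had the largest decreases of the 29. HMGCS1, the synthase that makes HMG-CoA, stood at 201.1 in DMSO and 71.0 in ML290 cells in the authors' deposited table. That is 2.83-fold lower (log2 ratio -1.50, adjusted p = 1.17e-08), and only 12 of the 8860 rows with a level of at least 10 had a lower ratio in the authors' deposited table. ACAT2, the cytosolic thiolase that supplies acetoacetyl-CoA, went from 122.9 to 48.2, 2.55-fold lower (adjusted p = 3.12e-09, the authors' deposited table). The reductase that acts between HMGCS1 and MVK is not analysed here. On GRCh38 with GENCODE 29, HMGCS1 lies on chromosome 5 from 43289395 to 43313512 and ACAT2 on chromosome 6 from 159760328 to 159779055. Of the exon bases of ACAT2, 26.5% are also exon of SOD2 on the opposite strand, and SOD2 was 4.89-fold higher (adjusted p = 5.38e-09, the authors' deposited table). Whether counting used strand is not given, so reads of that stretch cannot be told apart, and their part in the value was not tested.

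Next, 3 of the 4 enzymes that turn mevalonate into isopentenyl units fell. Mevalonate kinase, MVK, was 49.8 with DMSO and 22.2 with ML290, 2.24-fold lower (adjusted p = 5.21e-06, the authors' deposited table). The decarboxylase MVD was 86.7 and 44.3, 1.95-fold lower (adjusted p = 4.47e-06, the authors' deposited table). IDI1, the isomerase that makes the allylic starter unit, was 62.5 and 43.1, 1.45-fold lower (adjusted p = 0.000216, the authors' deposited table). PMVK, the kinase between MVK and MVD, did not pass, with 16.0 and 15.0 (log2 ratio -0.10, adjusted p = 0.421, the authors' deposited table). The difference between PMVK and the other enzymes was not itself tested.

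At the branch point, FDPS fell and GGPS1 did not pass the test. FDPS makes farnesyl diphosphate, the last intermediate common to sterols and prenyl chains, and went from 104.9 to 52.8, 1.99-fold lower (adjusted p = 2.22e-07, the authors' deposited table). GGPS1 extends it to geranylgeranyl diphosphate, which leads away from sterols, and had 7.74 with DMSO and 8.84 with ML290 (1.14-fold, adjusted p = 0.227, the authors' deposited table). Of the exon bases of GGPS1, 37.3% are shared with TBCE on the same strand, so part of its count may belong to either gene. TBCE had a ratio below 1 (1.11-fold, adjusted p = 0.302, the authors' deposited table). For FDPS, 18.6% of exon bases face the antisense RUSC1-AS1, and for IDI1, 14.8% face IDI2-AS1, neither of which passed the threshold in the authors' deposited table (adjusted p = 0.252 and 0.0569).

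All 3 enzymes that lead from farnesyl diphosphate to lanosterol fell. Squalene synthase, FDFT1, went from 152.3 to 85.4, 1.78-fold lower (adjusted p = 6.51e-08, the authors' deposited table). Squalene epoxidase, SQLE, an oxygen-dependent control point of the pathway, was 124.5 and 79.3, 1.57-fold lower (adjusted p = 4.47e-06, the authors' deposited table). Lanosterol synthase, LSS, closes the rings and was 245.8 and 198.2, only 1.24-fold lower (adjusted p = 0.00384, the authors' deposited table). The fold was thus smaller at each later step, but the differences between these 3 ratios were not tested.

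All 9 listed enzymes between lanosterol and cholesterol fell too, the median of their log2 ratios being -0.61 and the range -0.96 to -0.27 in the authors' deposited table. DHCR7, the reductase of the last step and the gene of Smith-Lemli-Opitz syndrome, was 276.6 with DMSO and 141.9 with ML290, 1.95-fold lower (adjusted p = 2.07e-07, the authors' deposited table). MSMO1, which starts removal of the methyl groups at the fourth carbon, was 1.72-fold lower (86.7 and 50.6, adjusted p = 4.07e-05, the authors' deposited table). The demethylase CYP51A1 was 1.47-fold lower (169.0 and 114.6, adjusted p = 0.000116, the authors' deposited table). NSDHL and HSD17B7, which follow MSMO1 in the same demethylation, were 1.47-fold lower (34.7 and 23.5) and 1.53-fold lower (6.59 and 4.32), with adjusted p of 2.69e-05 and 0.00122 in the authors' deposited table. HSD17B7 has a closely related pseudogene, HSD17B7P2, with 3.26 and 1.81 (1.80-fold lower, adjusted p = 0.00825, the authors' deposited table), and a read may fit either copy. The isomerase EBP was 1.53-fold lower (24.9 and 16.3, adjusted p = 5.79e-05, the authors' deposited table). The desaturase SC5D had the smallest decrease of the 9, 1.21-fold (27.0 and 22.3, adjusted p = 0.0264, the authors' deposited table).

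A pair of these enzymes carry out the same reaction. TM7SF2 and LBR both reduce the double bond left by CYP51A1, and LBR is also a structural protein of the inner nuclear membrane that binds lamin B. TM7SF2 went from 13.2 to 6.86, 1.92-fold lower (adjusted p = 4.39e-05), and LBR from 50.5 to 40.4, 1.25-fold lower (adjusted p = 0.00851, the authors' deposited table). Both fell, and the difference between their ratios was not tested.

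**Figure D2:**
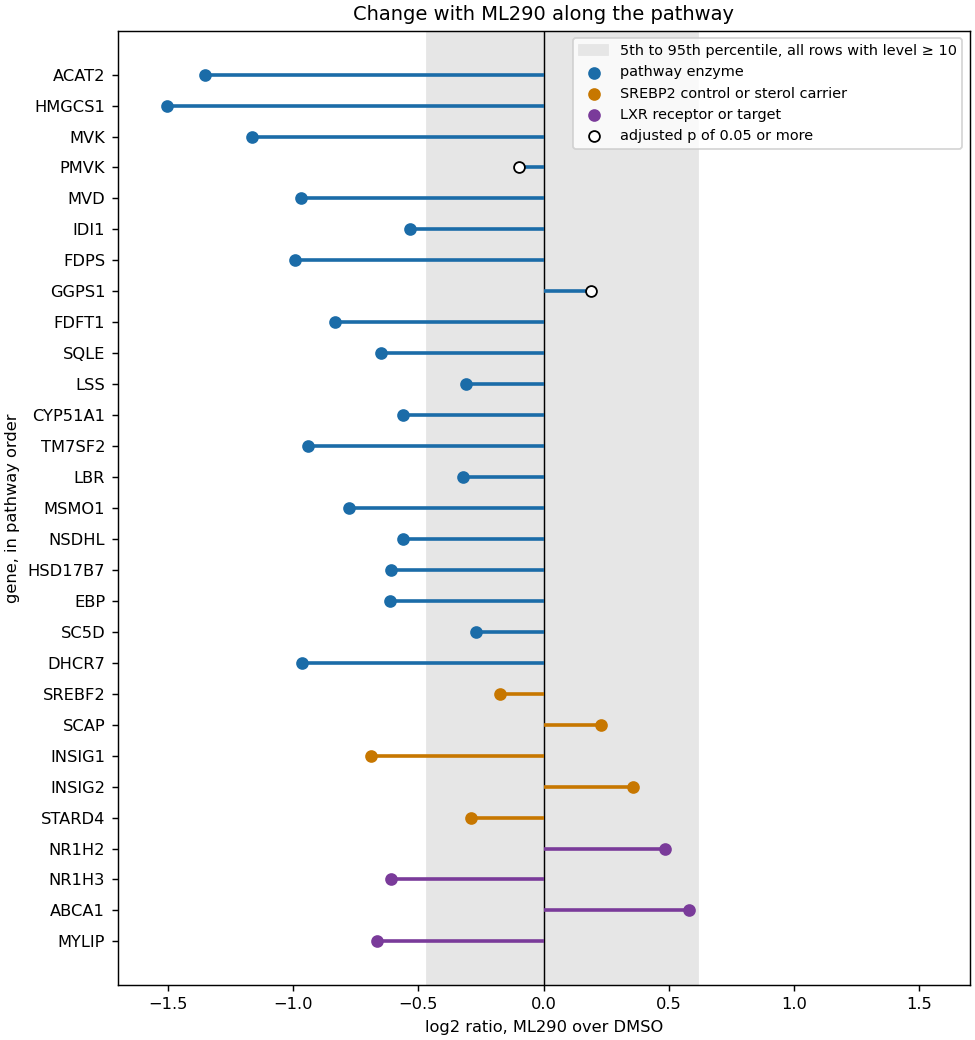
The log2 ratio of ML290 over DMSO for each listed gene in pathway order, coloured by role; open circles did not pass an adjusted p of 0.05, and the grey band runs from the 5th to the 95th percentile of all rows with a level of at least 10. The longest lines to the left are HMGCS1, ACAT2 and MVK at -1.50, -1.35 and -1.16, and PMVK and GGPS1 are the open circles.

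The genes that control SREBP2 did not move together. SREBF2, which encodes SREBP2, stood at 268.9 in DMSO and 238.0 in ML290 cells (the authors' deposited table), 1.13-fold lower with an adjusted p of 0.0483, just under the threshold. INSIG1, itself a target of SREBP2 that retains SCAP in the endoplasmic reticulum, went from 156.4 to 97.0, 1.61-fold lower (adjusted p = 1.30e-05, the authors' deposited table). Its relative INSIG2, which is known to depend less on SREBP, moved the other way, from 12.5 to 16.0, 1.28-fold higher (adjusted p = 0.0430, the authors' deposited table). SCAP, the escort of SREBP2, was 103.0 and 120.6, 1.17-fold higher (adjusted p = 0.0139, the authors' deposited table). STARD4, a cytosolic sterol carrier and SREBP2 target, was 90.6 and 74.2, 1.22-fold lower (adjusted p = 0.0368, the authors' deposited table). INSIG1 lies on chromosome 7 from 155297776 to 155310235 and SREBF2 on chromosome 22 from 41833079 to 41907308.

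Among the LXR genes each pair split. NR1H2, the broadly expressed receptor LXRβ, was 52.1 with DMSO and 72.9 with ML290, 1.40-fold higher (adjusted p = 0.000116, the authors' deposited table). NR1H3, the receptor LXRα, had the lowest level of the 29, at 3.07 and 2.01, 1.52-fold lower (adjusted p = 0.0190, the authors' deposited table), which corresponds to about 258 and 154 reads over the 4 libraries of a group. ABCA1 moves cholesterol and phospholipid out of the cell onto apolipoprotein A-I, and went from 57.2 to 85.5, 1.49-fold higher (adjusted p = 5.99e-06, the authors' deposited table). MYLIP, also called IDOL, is an LXR target that marks lipoprotein receptors for breakdown, and it was 6.77 and 4.27, 1.58-fold lower (adjusted p = 0.00137, the authors' deposited table). ABCA1 lies on chromosome 9 from 104781002 to 104928237 and NR1H2 on chromosome 19 from 50329653 to 50382982.

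The members known as SREBP2 targets and those known as LXR targets are set side by side here. Both lists were drawn up with earlier results of these data known. Of 21 SREBP2-regulated members, the authors' deposited table called 20 lower and 0 higher, against 15.6% and 19.5% of all rows. The remaining member, PMVK, also had a ratio below 1. The list leaves out GGPS1, SCAP and INSIG2, whose ratios were above 1, and LBR, which was lower. That no listed ratio is above 1 thus depends in part on the choice of list. An unadjusted p under 0.05 also gave 0 higher members, as any threshold must when every ratio is below 1. Their median log2 ratio was -0.65, or 1.57-fold lower, in the authors' deposited table. Of the 2 listed LXR targets, 1 was higher and 1 lower, and no difference between the lists was tested. ACAT2, FDPS and IDI1 share at least 10% of their exon bases with another listed row, and reads of HSD17B7 may fit its pseudogene. Without these 4 SREBP2-regulated members, 16 of the 17 left were lower in the authors' deposited table. Members with a smaller overlap, such as MVK, were kept.

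**Figure D3:**
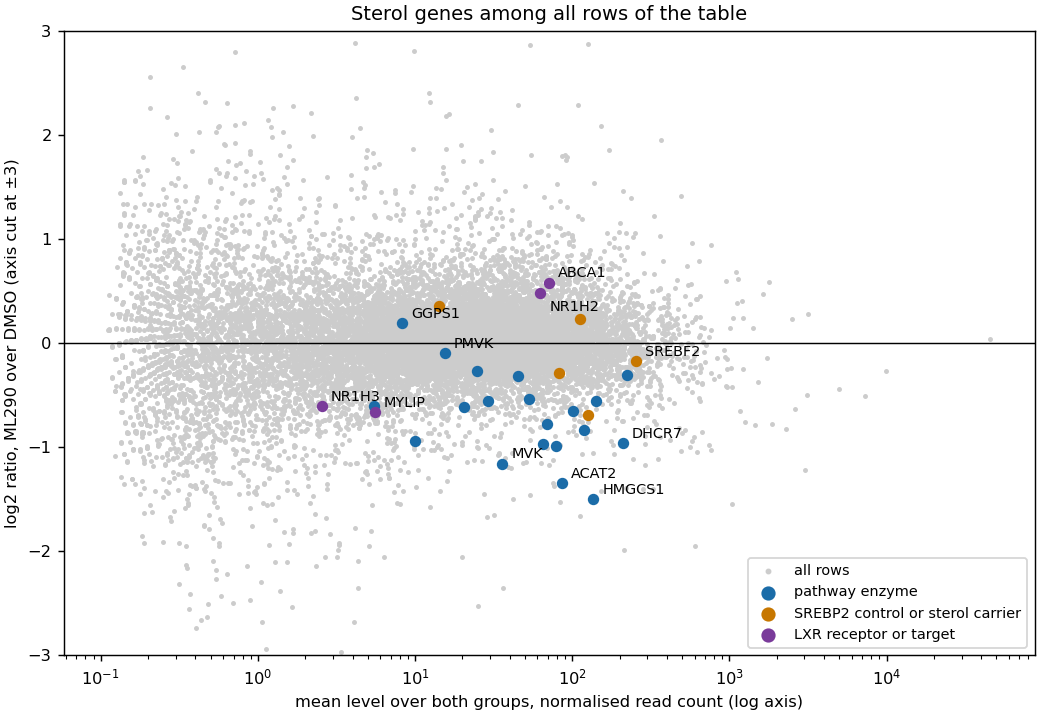
Log2 ratio of ML290 over DMSO against the mean level of both groups (log axis, normalised read count) for all rows in grey and the sterol genes in colour; rows past 3 either way are off the axis. HMGCS1, ACAT2, MVK and DHCR7 lie at the lower edge of the grey cloud at their level, and ABCA1 and NR1H2 in its upper part.

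Because so many of these genes moved together, their promoter letters are shown for 3 of the enzymes with the larger decreases (HMGCS1, MVK, FDPS) that have a window, the SREBP2-regulated gene that did not pass (PMVK), the controllers SREBF2, INSIG1 and INSIG2, and the exporter ABCA1. The sequences are the 250 bases before an annotated start, from RefSeq on GRCh38.p14, written 5′ to 3′ on the gene's strand. For HMGCS1 and INSIG2, which have 2 such starts each, the window listed first is given. Capitals mark CCAAT or its reverse complement ATTGG, the letters of the NF-Y box that often accompanies SREBP sites, and CACNCCA or TGGNGTG, the core of the sterol regulatory element. In ABCA1 they also mark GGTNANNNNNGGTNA read on the strand opposite to the one printed, a loose form of the direct repeat with 4 spacer letters that LXR binds.
HMGCS1, chr5:43313413-43313662, minus strand: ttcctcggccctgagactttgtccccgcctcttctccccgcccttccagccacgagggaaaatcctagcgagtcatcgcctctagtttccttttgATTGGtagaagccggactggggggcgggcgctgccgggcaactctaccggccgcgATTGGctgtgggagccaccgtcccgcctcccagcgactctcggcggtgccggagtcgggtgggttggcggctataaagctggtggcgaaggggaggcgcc
MVK, chr12:109573544-109573793, plus strand: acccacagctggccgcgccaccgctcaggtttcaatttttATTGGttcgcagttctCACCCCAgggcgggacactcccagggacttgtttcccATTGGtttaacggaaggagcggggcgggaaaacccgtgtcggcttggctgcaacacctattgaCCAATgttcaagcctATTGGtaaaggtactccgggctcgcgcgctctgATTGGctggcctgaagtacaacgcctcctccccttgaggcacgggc
PMVK, chr1:154936720-154936969, minus strand: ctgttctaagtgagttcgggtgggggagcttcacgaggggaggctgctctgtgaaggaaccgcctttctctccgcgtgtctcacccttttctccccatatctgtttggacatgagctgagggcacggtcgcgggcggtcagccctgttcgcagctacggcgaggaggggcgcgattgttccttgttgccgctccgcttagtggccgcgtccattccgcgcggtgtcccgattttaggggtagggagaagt
FDPS, chr1:155308616-155308865, plus strand: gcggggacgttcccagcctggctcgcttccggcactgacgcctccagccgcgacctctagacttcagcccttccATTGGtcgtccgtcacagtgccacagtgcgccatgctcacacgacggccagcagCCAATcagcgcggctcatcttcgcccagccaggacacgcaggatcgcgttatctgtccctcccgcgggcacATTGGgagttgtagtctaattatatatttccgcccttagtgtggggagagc
SREBF2, chr22:41832855-41833104, plus strand: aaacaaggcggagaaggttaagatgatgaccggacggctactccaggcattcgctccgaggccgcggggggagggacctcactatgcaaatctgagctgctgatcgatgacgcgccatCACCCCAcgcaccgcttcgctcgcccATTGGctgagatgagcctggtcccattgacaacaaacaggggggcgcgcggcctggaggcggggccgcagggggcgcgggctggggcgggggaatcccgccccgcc
INSIG1, chr7:155297628-155297877, plus strand: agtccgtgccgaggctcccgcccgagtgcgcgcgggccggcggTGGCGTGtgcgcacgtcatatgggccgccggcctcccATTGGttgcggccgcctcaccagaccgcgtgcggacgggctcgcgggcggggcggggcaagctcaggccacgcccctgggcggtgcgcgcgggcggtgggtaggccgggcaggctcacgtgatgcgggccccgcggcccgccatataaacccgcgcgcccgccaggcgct
INSIG2, chr2:118088221-118088470, plus strand: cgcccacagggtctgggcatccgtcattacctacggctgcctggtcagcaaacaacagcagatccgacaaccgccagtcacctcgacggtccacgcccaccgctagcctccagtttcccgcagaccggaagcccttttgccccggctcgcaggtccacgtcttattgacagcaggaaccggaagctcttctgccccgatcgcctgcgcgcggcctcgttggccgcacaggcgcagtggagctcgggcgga
ABCA1, chr9:104928156-104928405, minus strand: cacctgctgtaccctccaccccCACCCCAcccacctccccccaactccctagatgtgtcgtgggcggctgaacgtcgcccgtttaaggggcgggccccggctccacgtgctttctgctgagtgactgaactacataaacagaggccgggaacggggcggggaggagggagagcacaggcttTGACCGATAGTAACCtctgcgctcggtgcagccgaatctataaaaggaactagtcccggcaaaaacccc

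MVK held 5 copies of the CCAAT box, the innermost 46 bases before the start, and a sterol element core 194 bases before it. In SREBF2 the core lay 132 bases before the start and a CCAAT box 106 bases before it. FDPS held 3 CCAAT boxes and HMGCS1 2, and neither window printed here had the core. The FDPS window did hold TCACACGAC, not marked in capitals, 140 bases before the start. It matches TCACNCNAC, a looser form of the element counted below. The printed windows of PMVK and INSIG2 held neither pattern. In ABCA1 the direct repeat lay 69 bases before the start and a sterol element core 228 bases before it.

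RefSeq windows of 300 bases, from 250 before to 50 after a start, were found for 26 of the 30 members; ACAT2, FDFT1, SQLE and ABCG1 had none. A CCAAT box on either strand was present in 19 of the 26 (73.1%), against 42.7% of the 10912 genes of the table that have such windows. Of the 18 SREBP2-regulated members with a window, 16 held it, and PMVK and CYP51A1 were the 2 that did not. The core CACNCCA was present in 12 of 26 (46.2%) against 21.3%. These were 9 of the 18 SREBP2-regulated members with a window, and the LXR genes NR1H3, ABCA1 and MYLIP. The core with a leading T, TCACNCCA, was present in 3 (11.5%) against 4.81%. Other forms of the element overlap it. CACCCCA was present in 6 (23.1%) against 10.4%, and TCACNCNAC in 3 (FDPS, HSD17B7 and SREBF2, 11.5%) against 3.34%. TCACCCCAC was present in SREBF2 alone of the 26 (3.85%) against 0.568%. The GC box GGGCGG was present in 24 (92.3%) against 75.4%, and the E-box CACGTG in 5 (19.2%) against 12.3%. The direct repeat was present in ABCA1 and in the other window of HMGCS1, 7.69% of members against 0.63%. A gene counts here if any of its windows holds the letters, and genes differ in their number of windows. Such matches describe letters only and show no binding.

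Some members share a start region with a neighbour. At 6 members a listed protein-coding gene starts on the opposite strand within 1000 bases, namely at MVK, IDI1, GGPS1, NSDHL, DHCR7 and NR1H3. Only the partner of MVK passed the threshold. MMAB, an adenosyltransferase of vitamin B12 metabolism, went from 26.3 to 13.6, 1.94-fold lower (adjusted p = 1.71e-07, the authors' deposited table). The other 5 partners, WDR37, ARID4B, CETN2, NADSYN1 and ACP2, had adjusted p between 0.185 and 0.999 in the authors' deposited table. MVK and MMAB share 306 exon bases on opposite strands, 4.72% of the exon bases of MVK.

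Further genes of SREBP processing, which are not members, moved in both directions. Of 11, the authors' deposited table called 4 higher and 1 lower, with a median log2 ratio of 0.11. Of all rows 19.5% were higher and 15.6% lower. No list was tested as a whole and each is small. These counts, like those of the lists that follow, are therefore not a result about the list as a whole. RNF145, a ubiquitin ligase of the endoplasmic reticulum known in mouse liver to act on SCAP, went from 67.4 to 134.2, 1.99-fold higher (adjusted p = 1.16e-07, the authors' deposited table). PAQR3, a Golgi anchor of SCAP, was 1.41-fold higher (adjusted p = 0.000678), and the cargo receptor TMED2 was 1.38-fold higher (adjusted p = 0.000116, the authors' deposited table). ERLIN2, a membrane protein that binds the SREBP and SCAP complex, was the lower gene, 1.29-fold (adjusted p = 0.00620, the authors' deposited table). The proteases that cut SREBP2, MBTPS1 and MBTPS2, had 99.0 and 102.0, and 20.1 and 20.8, with DMSO and ML290 (adjusted p = 0.585 and 0.693, the authors' deposited table).

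Other LXR targets are given for comparison. Of the 7 listed among 10, the authors' deposited table called 2 lower and 0 higher, with a median log2 ratio of 0.02. The share called was near the 35.1% of all rows. By an unadjusted p under 0.05, 3 were lower and 0 higher. SCARB1, the receptor for high-density lipoprotein, was 1.33-fold lower (44.6 and 33.7, adjusted p = 0.000295), and the phospholipid acyltransferase LPCAT3 1.32-fold lower (42.2 and 32.1, adjusted p = 0.00134, the authors' deposited table). SREBF1, which encodes the SREBP of fatty acid synthesis and is a target of LXR, had 110.3 and 94.9 (adjusted p = 0.0569, the authors' deposited table). APOC1, ABCG5 and ABCG8 were not listed.

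Genes that move sterol out of lysosomes and between membranes were mixed. Of 20, the authors' deposited table called 7 higher and 4 lower, against 19.5% and 15.6% of all rows. Their median log2 ratio was 0.10. NPC1, which exports cholesterol from lysosomes, was 69.9 with DMSO and 125.5 with ML290, 1.79-fold higher (adjusted p = 3.62e-07, the authors' deposited table). The sterol and phosphoinositide exchanger OSBP was 1.40-fold higher (adjusted p = 2.01e-05, the authors' deposited table). TMEM97, the sigma-2 receptor, an NPC1-binding protein and SREBP2 target, went from 62.3 to 35.9, 1.73-fold lower (adjusted p = 1.80e-06, the authors' deposited table). The other lower genes were the lysosomal lipase LIPA (1.36-fold), OSBPL5 (1.21-fold) and GRAMD1C (1.55-fold) in the authors' deposited table.

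The last 2 lists hold genes of cholesterol esters and oxysterols, and of branches leaving the pathway before squalene. Of all rows 19.5% were called higher and 15.6% lower. Neither list was tested as a whole and both are small, so the counts below are not a result about either list. Of 5 listed among 10 ester and oxysterol genes, the authors' deposited table called 3 higher and 0 lower, and no further member passed an unadjusted p under 0.05. SOAT1, which esterifies cholesterol, was 41.3 and 55.2, 1.34-fold higher (adjusted p = 0.000314), and the ester hydrolase NCEH1 1.31-fold higher (adjusted p = 0.0176, the authors' deposited table). CYP27A1, which makes an oxysterol that activates LXR, was 1.52-fold higher at a low level (1.68 and 2.54, adjusted p = 0.0116, the authors' deposited table). Of 13 genes of prenylation, dolichol and ubiquinone synthesis, the authors' deposited table called 6 higher and 2 lower, with a median log2 ratio of 0.21. The subunits of the enzyme that builds dolichol, DHDDS and NUS1, were 1.41-fold (adjusted p = 3.61e-05) and 1.39-fold higher (adjusted p = 0.000202), and the Rab prenyltransferase subunit RABGGTB 1.37-fold higher (adjusted p = 0.00197, the authors' deposited table). The 2 lower genes were PDSS1 of ubiquinone synthesis, 1.38-fold, and the methyltransferase ICMT, 1.12-fold, in the authors' deposited table (adjusted p = 0.0414 and 0.0167).

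**Figure D4:**
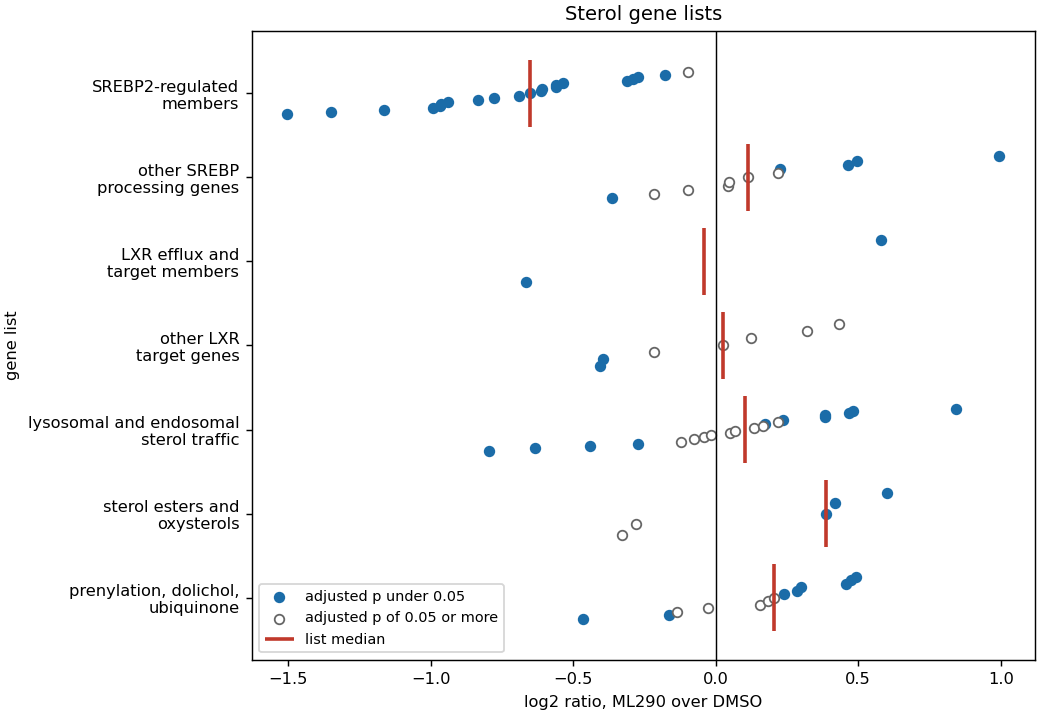
Log2 ratio of ML290 over DMSO for the genes of 7 lists; each point is a gene, filled where the adjusted p is under 0.05, and the red bar is the list median. The SREBP2-regulated members lie wholly to the left of 0 with a median of -0.65, and the medians of the other lists lie between -0.04 and 0.39.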

How the data were processed

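RNA of 8 samples was sequenced, 4 a group. Per the submitters' processing notes STAR and Partek were used, with GRCh38; how reads were annotated, counted, filtered, normalised and tested, and whether strand was used, is not stated there. The group means the authors deposited are a signal, least-squares means of normalised counts per the file headers. The ratio, the signed fold, which is a score with a minus sign for decreases, and the p-value with its step-up adjusted p-value were deposited by the authors, and calls use an adjusted p under 0.05.

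From these were computed the log2 ratio, the level (total over 8), counts per list and medians. No test was run, because the table holds group means. Calls repeated by Benjamini-Hochberg adjustment over the rows given, and the read step, were tested on simulated data. The step was fitted to low values, of which 78.3% (ML290) and 91.3% (DMSO) lay within 0.15 of a whole read. Coordinates are from GENCODE 29 and promoters from RefSeq, with 9 letter patterns searched in all, on both strands; those marked in capitals were chosen after matches were seen. Members and lists were chosen with earlier results of these data known. All listed members are named, and of each other list the 3 genes with the smallest adjusted p and those against the rest; others named, such as MBTPS1, MBTPS2 and MMAB, were chosen after their values were seen. Python 3.11.15, numpy 2.4.6, pandas 2.3.3 and matplotlib 3.10.9 were used.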

Additional observations from a re-analysis of the deposited data

How the results depend on the processing

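No paired analysis was possible because the table holds group means, and for the same reason no sample could be left out. Under an adjusted p of 0.01, 21 of the 27 members that passed still did, 19 lower and 2 higher instead of 23 and 4. The 6 lost were SC5D, SREBF2, SCAP, INSIG2, STARD4 and NR1H3. Bonferroni adjustment over all rows left 13 members, 12 lower and 1 higher (ABCA1), all 12 lower ones among the SREBP2-regulated members instead of 20, and of the LXR targets it left 1, with 0 lower, since MYLIP was lost. Adjustment over the rows given and a minimum level of 1 changed no member's call, and neither did an unadjusted p under 0.05, which was added after the data were seen. Also added then, leaving out ACAT2, FDPS, GGPS1, HSD17B7 and IDI1 left 19 lower and 4 higher members. These share at least 10% of their exon bases with another listed row or, for HSD17B7, may share reads with its pseudogene. Members with a smaller overlap were kept. Of 198 comparisons of a gene with an alternative, 178 kept the call. Only centring on the median ratio altered a log2 ratio, by 0.02, and it reused the adjusted p, so it could change no call. The member ratio nearest to no change was -0.10 (PMVK), so no alternative could reverse a direction, and none did. Depth limits NR1H3 most, with about 154 reads over 4 libraries.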
